A study of Mus musculus with 11 samples.

Results

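Fc receptors bind the constant part of antibodies and link IgG to the responses of myeloid cells. In the mouse, Fcgr1, Fcgr3 and Fcgr4 encode the ligand-binding alpha chains of the activating Fc gamma receptors. All of them signal through the common gamma chain encoded by Fcer1g, whose tyrosine-based activation motif is phosphorylated by Src family kinases and recruits the kinase Syk. Fcgr2b encodes the inhibitory receptor, which recruits the phosphatase SHIP1 (Inpp5d) through a tyrosine-based inhibition motif. Fcgrt encodes the alpha chain of the neonatal Fc receptor FcRn, which pairs with beta 2 microglobulin (B2m) and recycles IgG inside cells. These 6 genes were taken by symbol from a table of 14739 genes, and 6 of 6 passed the filter on low values. Microglia carry activating and inhibitory Fc receptors, and Fcgr4 is also known as a gene of monocytes that patrol blood vessels and of macrophages.

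Bulk RNA was sequenced from cerebral microglia of old mice on the C57BL/6 background, collected by sorting for the surface protein Tmem119, to ask how losing a copy of Csf1r, of Csf2 or of both bears on these cells. Csf1r encodes the receptor of CSF-1 and IL-34, and Csf2 encodes the cytokine GM-CSF. The groups were wild type (WT, 3 libraries), Csf1r+/- (Csf1r_het, 3 libraries), Csf2+/- (Csf2_het, 3 libraries) and Csf1r+/-; Csf2+/- (Dhet, 2 libraries). No other allele and no treatment is named for any group, and the labels do not say how the alleles were made. The mice were 21 months old, apart from Csf1r_het replicate 1 at 20 months and Csf1r_het replicate 2 and Dhet replicate 2 at 24 months. The labels call the libraries replicates without saying how many mice each holds, so p-values measure the spread between these libraries. Values are normalized counts, that is estimated reads per gene after scaling each library by its own factor. A fold change is a difference of log2(normalized count + 1), and a gene is said to have risen or fallen where limma's p-value, adjusted over all 13223 genes tested in that comparison, was under 0.05.

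Depth ran from 21037819 to 53081638 reads per library. Csf1r stood at 93319, 41261 and 63538 normalized counts in WT, 17017, 40567 and 24022 in Csf1r_het and 40151 and 30254 in Dhet, so every library labelled Csf1r+/- lay below every WT library. Csf2 itself was not analysed here. Tmem119, the gene of the sorting marker, was present in all libraries at 5432 (WT replicate 2) to 31939 normalized counts. Haemoglobin genes took 16.1% to 58.8% of the counts. Csf1r_het replicate 2 had that highest share and 15.6% of genes at 0, against 4.98% to 9.88% elsewhere. In WT replicate 2, 315 genes with transcripts under 800 bases stood a median of 1.45 log2 units above the median of the other libraries. The same measure differed between the remaining libraries too. It was -0.81 and -0.94 in WT replicates 1 and 3, 0.29 to 0.73 in Csf1r_het, -0.28 to 0.67 in Csf2_het and -0.67 and -0.71 in Dhet. Dhet replicate 2 differed from the rest in the sex-linked genes Ddx3y (717 normalized counts against 0 to 16.3) and Xist (4.02 against 3011 to 8151).

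Of the 6 genes, 4 lie on chromosome 1 of mm10. Fcgr2b (ENSMUSG00000026656.15, chr1:170958617-170976547, minus strand), Fcgr4 (ENSMUSG00000059089.4, chr1:171018920-171029761, plus strand) and Fcgr3 (ENSMUSG00000059498.13, chr1:171051174-171064935, minus strand) follow each other with gaps of 42372 and 21412 bases. Fcer1g (ENSMUSG00000058715.11, chr1:171229572-171234365, minus strand) lies 164636 bases beyond Fcgr3. Fcgr1 (ENSMUSG00000015947.10) is at chr3:96282909-96293969 on the minus strand, and Fcgrt (ENSMUSG00000003420.8) is at chr7:45092990-45103851 on the minus strand. Their longest protein-coding transcripts in GENCODE vM21 have 3544 bases in 8 exons (Fcgr2b), 2589 in 6 (Fcgr1), 1770 in 7 (Fcgrt), 1347 in 5 (Fcgr3), 1256 in 5 (Fcgr4) and 683 in 5 (Fcer1g). Fcgr2b and Fcgr3 share sequence: of the 31-base words in their transcripts, 233 of 1627 words of Fcgr3 (14.3%) also occur in Fcgr2b. The assignment of reads to that pair is therefore less certain than for the others. For Fcgr4, 17 of 1226 words (1.39%) occur in another gene, and none do for Fcgr1, Fcer1g and Fcgrt.

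The stretches before the start sites of the activating alpha chains are shown with a short motif that their promoters share. Its part in the levels of these genes was not tested. The motif is GAGGAA, searched on both strands. It matches the core bound by the myeloid factor PU.1, and each of the 3 sequences carries it in reverse complement, as TTCCTC, which is in capitals. Each runs 5′ to 3′ toward its gene and comes from RefSeq on GRCm38.p6, with bases inside annotated exons left out.
Fcgr4 (chr1:171018676-171018919, + strand): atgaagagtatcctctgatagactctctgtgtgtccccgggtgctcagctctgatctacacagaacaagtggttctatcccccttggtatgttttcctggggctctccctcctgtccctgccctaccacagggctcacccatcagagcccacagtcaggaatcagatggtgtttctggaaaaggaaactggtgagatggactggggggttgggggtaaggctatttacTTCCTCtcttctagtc
Fcgr1 (chr3:96293970-96294219, - strand): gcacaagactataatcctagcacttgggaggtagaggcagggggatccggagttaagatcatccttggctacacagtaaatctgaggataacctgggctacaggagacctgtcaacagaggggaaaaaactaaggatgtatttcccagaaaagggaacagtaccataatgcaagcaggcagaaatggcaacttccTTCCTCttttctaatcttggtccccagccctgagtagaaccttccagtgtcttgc
Fcgr3 (chr1:171059404-171059626, - strand): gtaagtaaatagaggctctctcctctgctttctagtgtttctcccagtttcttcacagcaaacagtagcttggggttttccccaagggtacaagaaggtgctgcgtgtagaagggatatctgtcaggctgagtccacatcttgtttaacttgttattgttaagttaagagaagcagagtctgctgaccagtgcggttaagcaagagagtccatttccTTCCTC
In windows from 250 bases before to 50 bases after the start, the motif occurred once each in Fcgr4, 22 bases upstream, in Fcgr1, 55 bases upstream, and in Fcgr3, 6 bases upstream. It was not found in the windows of Fcgr2b, Fcer1g and Fcgrt. Of 27025 mouse promoters of the same 300 bases, 28.3% hold it. The STAT-type motif TTCNNNGAA was found once, in Fcgr1 (109 bases upstream), and 8.47% of promoters hold it. The Fcgr3 window lies in an intron of a longer isoform of that gene. The Fcgr2b window (chr1:170976022-170976321) also lies inside its annotated gene, and its longest stretch before the start and outside exons has 63 bases. The absence of the motif there is thus for an internal start of Fcgr2b.

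Fcgr4 was the member that fell. Its normalized counts were 7994, 9067 and 9039 in WT, 3507, 5358 and 2287 in Csf1r_het, 1809.7, 2042 and 2056 in Csf2_het and 990.4 and 1061 in Dhet. The 4 groups did not overlap: each library of a group lay below each library of the group before it. This descending order, seen in the values before it was counted, held for 3 of 13211 genes with a symbol of their own (0.0227%), which were Fcgr4, Klf13 and Skint3. Between 1319 and 12448 reads per library stand behind these values.

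Against WT, Fcgr4 fell in Csf2_het (log2 difference -2.14, SE 0.31, 95% interval -2.80 to -1.48, limma adjusted p = 0.00213). That is 4.42-fold lower. In Dhet it fell too (log2 difference -3.08, SE 0.34, interval -3.82 to -2.34, limma adjusted p = 0.00492). There it was 8.47-fold lower and had the lowest p of all 13223 genes in that comparison. In Csf1r_het the difference was -1.31 (SE 0.31, interval -1.97 to -0.65), or 2.48-fold lower. It did not pass the test (limma adjusted p = 0.0574) although no library overlapped WT.
So 0 of 6 members passed in Csf1r_het, where 1.32% of all genes did, 1 of 6 passed in Csf2_het, where 3.65% did, and 1 of 6 passed in Dhet, where 0.529% did. By the coarser measure of all libraries lying below all WT libraries, the shares over all genes were 12.8% for Csf1r_het, 14.3% for Csf2_het and 12.6% for Dhet. These comparisons share the WT libraries.

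Whether the loss of a second gene copy changed Fcgr4 further was asked by comparing Dhet with each single heterozygote. Fcgr4 differed by -1.77 between Dhet and Csf1r_het (SE 0.34, interval -2.51 to -1.03, limma adjusted p = 0.263) and by -0.94 between Dhet and Csf2_het (SE 0.34, interval -1.68 to -0.20, limma adjusted p = 0.499). Neither passed, and both Dhet libraries lay below all libraries of each group. Csf1r_het stood 0.83 above Csf2_het (SE 0.31, interval 0.17 to 1.49, limma adjusted p = 1), again without overlap. Non-overlap in the same direction was seen in 14.4%, 12.9% and 5.98% of genes in these comparisons, and 0.00756%, 0.0227% and 0.0227% of genes passed the test. The changes of the single heterozygotes add up to -3.45, beside -3.08 in Dhet. Their interaction was 0.37 (SE 0.46, interval -0.62 to 1.36, limma adjusted p = 0.708), and 0 of 6 members passed for the interaction, where 1.85% of all genes did and 1.2% did with a positive value.

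**Figure D1:**
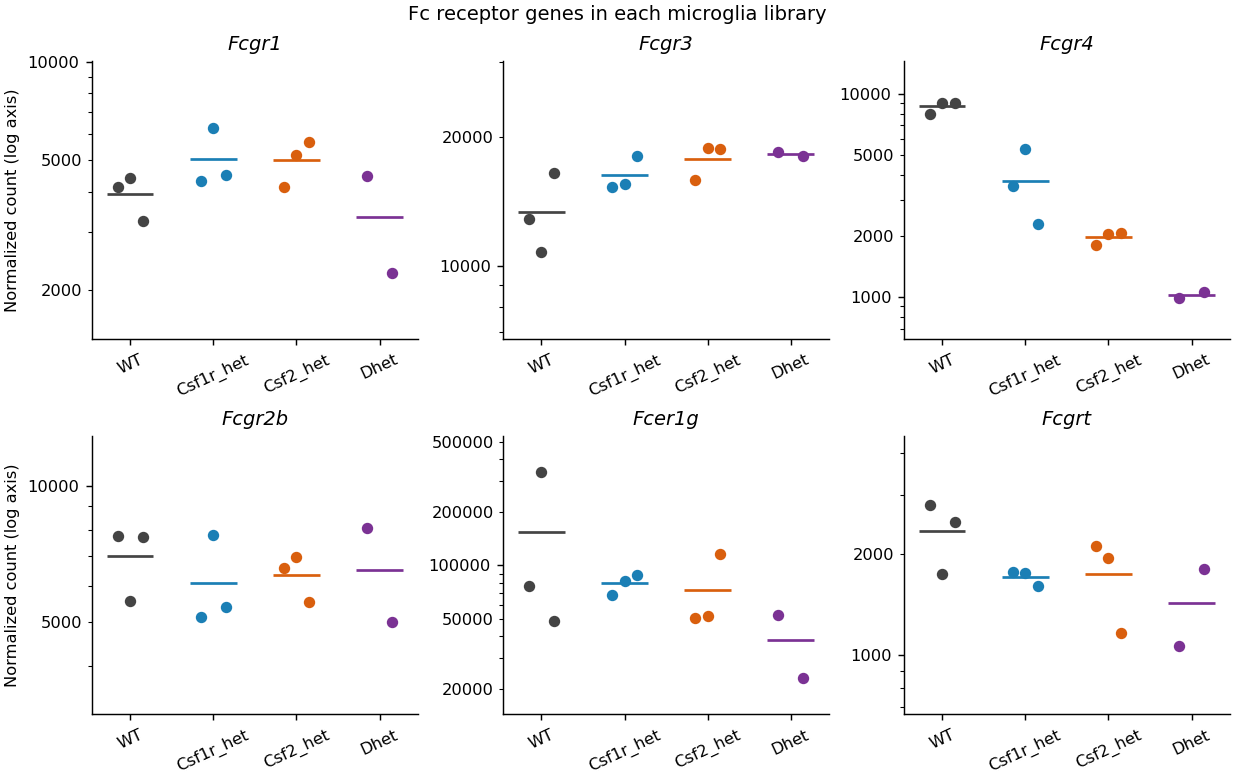
Normalized count (log axis) of each Fc receptor gene in the 11 libraries, by genotype. Points are libraries and lines are group means. The Fcgr4 points step down from 7994 to 9067 in WT to 990.4 and 1061 in Dhet without overlap between neighbouring groups in the order WT, Csf1r_het, Csf2_het, Dhet, an order that none of the other 5 genes shows.

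The call for Fcgr4 in Csf2_het was kept in 24 of 24 alternative settings. In Dhet the fold kept its size but the call was lost without Dhet replicate 1, which leaves 1 Dhet library (log2 difference -3.03, adjusted p = 0.0663), and when only WT and Dhet were fitted (-3.08, adjusted p = 0.113). In Csf1r_het it was gained without Csf1r_het replicate 2, the library richest in haemoglobin (log2 difference -1.62, adjusted p = 0.0488).

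Fcgr3, the other low-affinity activating alpha chain and a neighbour of Fcgr4 on chromosome 1, did not share this pattern. Its normalized counts were 12891, 10735 and 16465 in WT, 15260.0, 15566 and 18067 in Csf1r_het, 15875, 18874 and 18732 in Csf2_het and 18492 and 18039 in Dhet. Both Dhet libraries lay above all WT libraries, as they did for 13.5% of genes, and the single heterozygotes overlapped WT. The log2 differences from WT were 0.30 (interval -0.32 to 0.93), 0.43 (interval -0.19 to 1.06) and 0.47 (interval -0.23 to 1.17), and none passed (limma adjusted p = 0.637, 0.497 and 0.636). The interval for Dhet reaches no lower than -0.23, whereas that of Fcgr4 reaches no higher than -2.34.

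Fcgr1 encodes the high-affinity receptor, which binds monomeric IgG. It stood at 4138, 4407 and 3251 normalized counts in WT, 4297, 6275 and 4488 in Csf1r_het, 4120.1, 5181 and 5659 in Csf2_het and 4449.9 and 2256 in Dhet. The groups overlapped, with Dhet replicate 2 the lowest of the 11 libraries and Dhet replicate 1 among the others. The log2 differences from WT were 0.34 (interval -0.33 to 1.02), 0.34 (interval -0.33 to 1.02) and -0.30 (interval -1.05 to 0.45), none of them passing (limma adjusted p = 0.619, 0.640 and 0.799). The Dhet value rests on replicate 2 and was 0.19 without it. The interaction of -0.98 (SE 0.47, interval -1.99 to 0.03) did not pass either (limma adjusted p = 0.289).

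Fcgr2b, the inhibitory receptor, overlapped WT in every group. Its normalized counts were 7741, 5547 and 7683 in WT, 5118, 7766 and 5397 in Csf1r_het, 6579, 6972 and 5522 in Csf2_het and 8044 and 4991 in Dhet, with overlap throughout. Log2 differences from WT were -0.21 (interval -0.85 to 0.43), -0.13 (interval -0.77 to 0.51) and -0.13 (interval -0.84 to 0.59). None passed (limma adjusted p = 0.772, 0.886 and 0.928). The sign in Dhet turned to 0.22 without Dhet replicate 2 and to 0.089 when libraries were scaled to their total without haemoglobin.

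**Figure D2:**
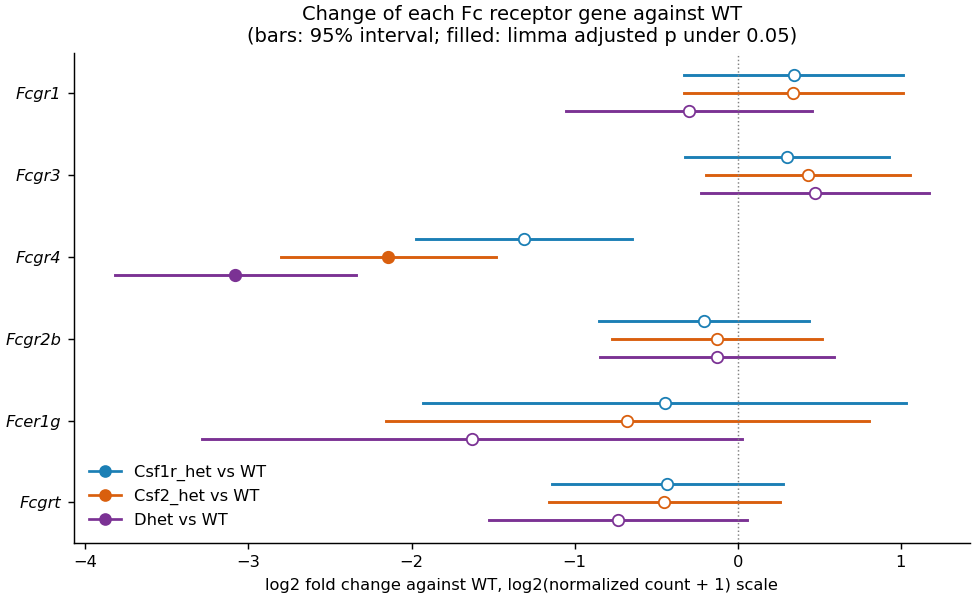
Log2 fold change against WT of each Fc receptor gene, with 95% intervals from limma. Filled points passed at an adjusted p under 0.05. Fcgr4 has filled points at -2.14 (Csf2_het) and -3.08 (Dhet) and an interval away from 0 in Csf1r_het, and the intervals of the other 5 genes all include 0.

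Fcer1g, the signalling chain that the activating receptors need at the cell surface, varied more between libraries than between groups. It stood at 76498, 335886 and 48499 normalized counts in WT, 68020.4, 82069 and 88169 in Csf1r_het, 50745, 51961 and 115551 in Csf2_het and 52455 and 23011 in Dhet. WT replicate 2 was 6.93 times the lowest WT library, and it is the library in which short transcripts stood highest. Tyrobp, the related adaptor DAP12, was also highest there (211350.2 normalized counts against 28086 to 75039 in the others), and so was the ribosomal gene Rpl23 (52604 against 2171 to 11781), which had the highest correlation with Fcer1g among 11006 genes with a mean of at least 50, over the 11 libraries (r = 0.98). The log2 differences of Fcer1g from WT were -0.45 (interval -1.93 to 1.04), -0.68 (interval -2.16 to 0.80) and -1.63 (interval -3.29 to 0.03), and none passed (limma adjusted p = 0.790, 0.683 and 0.502). Without WT replicate 2 they were 0.37 in Csf1r_het, 0.14 in Csf2_het and -0.81 in Dhet. Leaving that library out does not make the libraries alike in short transcripts. Those stood low in the other WT libraries and in Dhet and high in Csf1r_het, and the Fcer1g transcript is 683 bases long. The part of transcript length in these differences was not tested.
Within each library, the log2 ratio of Fcer1g to Tyrobp was 0.68 ± 0.022 in WT (SD, n = 3), 0.33 ± 0.12 in Csf1r_het (n = 3), 0.49 ± 0.24 in Csf2_het (n = 3) and 0.19 ± 0.67 in Dhet (n = 2). The WT libraries agreed closely on this ratio although they differed 6.93-fold in Fcer1g.

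Fcgrt stood at 2810.1, 1751 and 2491 normalized counts in WT, 1769, 1754 and 1606 in Csf1r_het, 2121, 1949 and 1166 in Csf2_het and 1066 and 1807 in Dhet. WT replicate 2 lay within the range of the heterozygous groups, and the other WT libraries lay above all of them. The log2 differences of -0.43 (interval -1.14 to 0.28), -0.45 (interval -1.16 to 0.26) and -0.73 (interval -1.52 to 0.06) did not pass (limma adjusted p = 0.538, 0.542 and 0.521). B2m, the partner chain of FcRn, differed by 0.12, -0.34 and -0.95 (limma adjusted p = 0.945, 0.855 and 0.679).

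To compare levels between genes, normalized counts were divided by the length of the longest coding transcript. Per kilobase, Fcer1g had a mean of 132153 over the 11 libraries, Fcgr3 12080.4, Fcgr4 3272, Fcgr2b 1830.5, Fcgr1 1704 and Fcgrt 1042. In WT, Fcgr3 led the alpha chains with 9921 ± 2148 (SD, n = 3) and Fcgr4 followed with 6927 ± 487 (n = 3). Fcgr2b (1972 ± 353, n = 3), Fcgr1 (1519 ± 234, n = 3) and Fcgrt (1328 ± 307, n = 3) overlapped between libraries. In Csf1r_het the order was Fcgr3 (12099 ± 1143, n = 3), Fcgr4 (2959.7 ± 1231, n = 3), Fcgr1 (1939 ± 421, n = 3), Fcgr2b (1719 ± 411, n = 3) and Fcgrt (966 ± 51.1, n = 3). In Csf2_het, Fcgr3 led with 13234 ± 1256 (n = 3), and Fcgr1 (1926 ± 304, n = 3), Fcgr2b (1794 ± 212, n = 3) and Fcgr4 (1568 ± 110.1, n = 3) overlapped above Fcgrt (986 ± 287, n = 3). In Dhet, Fcgr4 (817 ± 39.6, n = 2) and Fcgrt (812 ± 296, n = 2) were the lowest, and Fcgr4 lay below Fcgr2b (1839 ± 609, n = 2).

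The make-up of the activating receptors therefore differed between groups. Fcgr4 made up 37.9% ± 4.21 (SD, n = 3) of the 3 activating alpha chains per kilobase in WT, 17.3% ± 6.34 (n = 3) in Csf1r_het, 9.39% ± 0.289 (n = 3) in Csf2_het and 5.22% ± 0.519 (n = 2) in Dhet. Fcgr3 made up 53.6% ± 6.03, 71.4% ± 7.87, 79.1% ± 0.607 and 86.6% ± 2.89, and Fcgr1 8.42% ± 2.09, 11.3% ± 1.69, 11.5% ± 0.801 and 8.18% ± 3.41. Per kilobase and within libraries, the log2 ratio of Fcgr2b to Fcgr4 was -1.83 ± 0.34 (n = 3) in WT, -0.72 ± 0.40 (n = 3) in Csf1r_het, 0.19 ± 0.23 (n = 3) in Csf2_het and 1.13 ± 0.56 (n = 2) in Dhet. Per kilobase, Fcgr2b thus stood below Fcgr4 in WT and Csf1r_het and above it in Dhet. In plain normalized counts this ratio was -0.33 ± 0.34 in WT, 0.77 ± 0.40 in Csf1r_het, 1.69 ± 0.23 in Csf2_het and 2.63 ± 0.56 in Dhet. Which of the 2 genes is higher in Csf1r_het therefore depends on the division by length, and the rise of the ratio from WT to Dhet does not. Against the sum of the 3 activating chains per kilobase, the log2 ratio of Fcgr2b was -3.23 ± 0.21 (n = 3), -3.33 ± 0.24 (n = 3), -3.22 ± 0.26 (n = 3) and -3.13 ± 0.41 (n = 2) in the same order. The group means of this balance of inhibitory to activating transcripts differed by less than its spread between libraries.

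**Figure D3:**
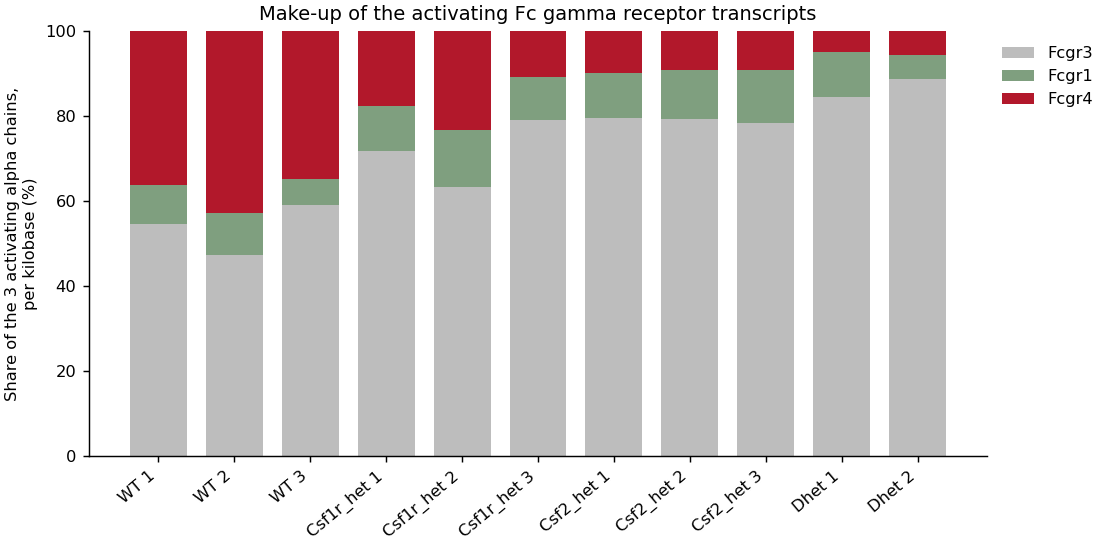
Share of Fcgr1, Fcgr3 and Fcgr4 in the sum of the 3 activating alpha chains, per kilobase of transcript, in each library. The Fcgr4 part shrinks from a mean of 37.9% in WT to 5.22% in Dhet, and the Fcgr3 part grows from 53.6% to 86.6%.

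Genes next to the Fcgr genes were counted as well. Within 100000 bases of the outer genes of the chromosome 1 group, 15 genes that are not members were tested. Of these, Pcp4l1 rose in Csf1r_het (log2 1.89, limma adjusted p = 0.0390) and Csf2_het (1.56, limma adjusted p = 0.0462), and none passed in Dhet. The median log2 difference over these 15 genes was 0.47 in Csf1r_het, 0.60 in Csf2_het and 0.29 in Dhet, against medians over all tested genes of -0.12, -0.02 and 0.02.

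The kinases and adaptors that carry the signal from the gamma chain fell in part in both single heterozygotes. Of 33 tested genes of this list, 5 fell in Csf1r_het, 7 in Csf2_het and 1 in Dhet, and none rose. Their median log2 differences were -1.0, -0.71 and -0.51. With WT replicate 2 and Csf1r_het replicate 2 left out, an alternative added after seeing the data, 9, 9 and 1 fell. In that setting 322, 634 and 57 of all 13223 genes fell. In the main fit, 0.885% of all genes fell in Csf1r_het, 2.84% in Csf2_het and 0.499% in Dhet. Fgr, a Src family kinase of myeloid cells, fell in every group: its normalized counts were 9995, 8875 and 6693 in WT, 1974, 2412 and 1043 in Csf1r_het, 886, 981 and 737 in Csf2_het and 1655 and 2597 in Dhet. The changes of -2.30 (SE 0.35, limma adjusted p = 0.0126), -3.28 (SE 0.35, limma adjusted p = 0.00041) and -2.02 (SE 0.39, limma adjusted p = 0.0399) make Csf2_het, not Dhet, the lowest group, unlike for Fcgr4. Its interaction was 3.57 (SE 0.52, limma adjusted p = 0.00874).

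Syk, the kinase that binds the phosphorylated gamma chain, fell in both single heterozygotes (log2 differences -1.68 in Csf1r_het and -1.92 in Csf2_het, SE 0.31 in each, limma adjusted p = 0.0300 and 0.00501). It differed by -1.23 in Dhet (SE 0.35, limma adjusted p = 0.221). Its normalized counts were 3960.2, 4485 and 2568 in WT, 1057, 852 and 1531 in Csf1r_het, 948, 977 and 913 in Csf2_het and 1674 and 1393 in Dhet, with every heterozygous library below WT. Lyn, another Src family kinase, fell in Csf1r_het (-1.28, limma adjusted p = 0.0408) and stood at -0.93 and -0.73 in the others (limma adjusted p = 0.0823 and 0.457). The adaptor Lcp2 (SLP-76) fell in both (-1.55 and -1.35, limma adjusted p = 0.0293 and 0.0214), and the exchange factor Vav3 fell in Csf2_het (-4.22, limma adjusted p = 0.000626).

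The inhibitory side gave a split between its phosphatases. Inpp5d (SHIP1), the main effector of Fcgr2b, stood at -0.22 (interval -0.93 to 0.50), 0.30 (interval -0.41 to 1.02) and 0.02 (interval -0.78 to 0.83), none passing (limma adjusted p = 0.791, 0.710 and 0.991), although the Csf2_het libraries all lay above WT. Ptpn6 (SHP-1), a phosphatase that binds the inhibition motifs of many receptors, fell in both single heterozygotes (-1.62 in Csf1r_het and -1.66 in Csf2_het, SE 0.27 in each, limma adjusted p = 0.0191 and 0.00501). In Dhet it differed by -0.99 (limma adjusted p = 0.268). Of the 10 phosphatases and adaptors listed with these, 1 fell in Csf1r_het, 4 in Csf2_het and none in Dhet, with medians of -1.25, -1.41 and -0.76. Besides Ptpn6 these were the adaptor Dok3 (-1.86), the CD45 phosphatase gene Ptprc (-1.67) and Sh2d1b1 (-2.15) in Csf2_het. Whether each of the 10 genes acts on the inhibitory side was not tested.

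Genes of a list of receptors drawn up as possible partners of the gamma chain also fell in part. Whether each of them uses that chain was not tested. Of 10 tested, 2 fell in Csf1r_het, 5 in Csf2_het and 1 in Dhet, with medians of -1.09, -2.33 and -0.89. None passed in the comparisons of the heterozygous groups with each other. Clec4a1, a C-type lectin receptor, fell in all groups (log2 differences -2.55, -3.21 and -3.35, limma adjusted p = 0.0246, 0.00204 and 0.0131). Its normalized counts were 6151, 6724 and 2490.0 in WT and between 311 and 1012 in the 8 heterozygous libraries. Pira2, a paired immunoglobulin-like receptor, fell in Csf2_het (-4.74, limma adjusted p = 0.000775), and so did the fungal sensors Clec4n and Clec4e (-4.63 and -3.0, limma adjusted p = 0.0260 and 0.0279). Cd300lb fell in Csf1r_het and Csf2_het (-2.20 and -2.43, limma adjusted p = 0.0390 and 0.0116). Paralogs of the Pira family share sequence, so the Pira2 value is uncertain.

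Genes of the machinery downstream of phagocytic receptors fell in part. Of 29 tested phagocytosis effectors, 2 fell in Csf1r_het, 5 in Csf2_het and 1 in Dhet, with medians of -0.76, -0.73 and -0.40. With WT replicate 2 and Csf1r_het replicate 2 left out, 8, 10 and 1 fell. Over 25 settings the counts ran from 0 to 8 in Csf1r_het, 1 to 10 in Csf2_het and 0 to 1 in Dhet. The motor protein gene Myo1g fell in each (-2.51, -3.19 and -2.65, limma adjusted p = 0.0126, 0.000775 and 0.0146). Of the 5 subunits of the phagocyte oxidase, which makes superoxide after Fc receptor ligation, 2 fell in Csf1r_het, 3 in Csf2_het and 1 in Dhet. Cybb, its catalytic subunit, fell in each (-1.77, -2.83 and -1.83, limma adjusted p = 0.0157, 0.000286 and 0.0210). Cyba, its membrane partner, differed by -0.34, -0.65 and -0.99 without passing (limma adjusted p = 0.781, 0.567 and 0.580).

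Among 11 tested genes of other antibody-binding proteins, 2 fell in Csf2_het and 1 in Dhet. Fcrl5, a receptor-like gene known from B cells, fell in Csf2_het and Dhet (-3.84 and -4.6, limma adjusted p = 0.0228 and 0.0487). It stood at 313 to 568 normalized counts in WT and 10.1 to 66.3 elsewhere. Lgals3 (galectin-3), which binds IgE and sugars, fell in Csf2_het (-2.28, limma adjusted p = 0.00348). Fcrls, a receptor-like gene typical of microglia, differed by 0.34, 0.57 and 0.27 without passing (limma adjusted p = 0.756, 0.588 and 0.895).

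**Figure D4:**
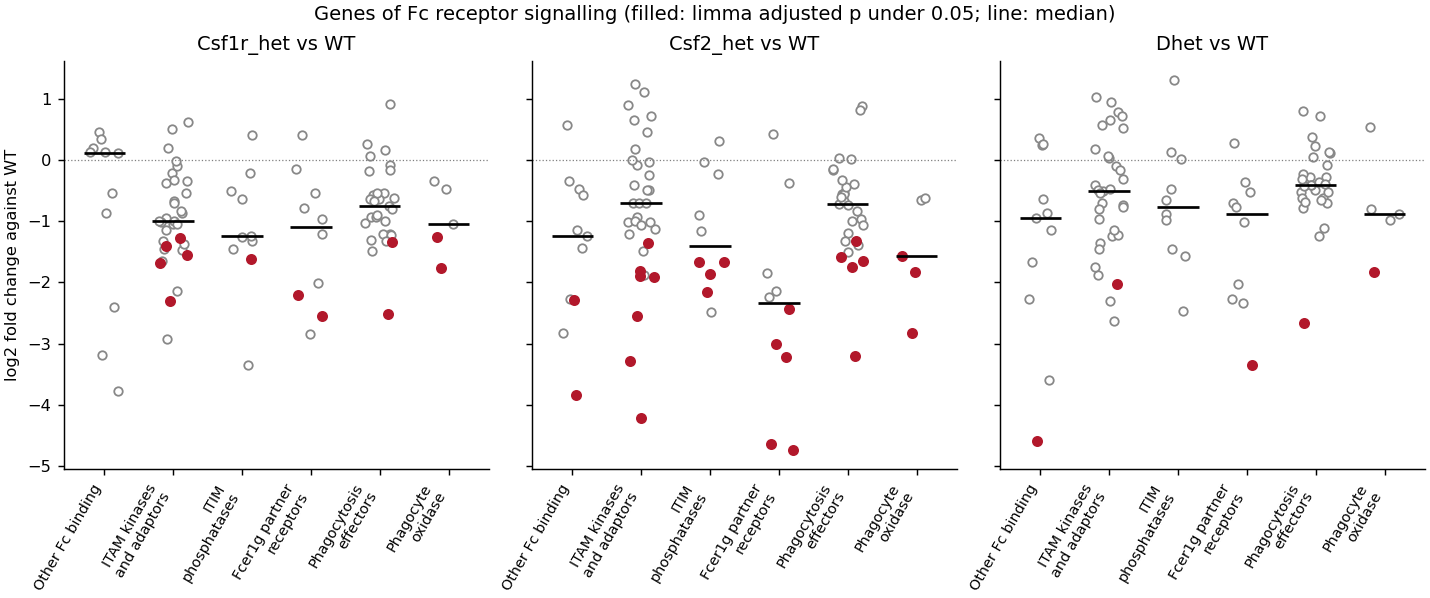
Log2 fold change against WT of the genes of 6 lists around Fc receptor signalling. Points are genes, filled in red where limma's adjusted p was under 0.05, and lines are medians. No filled point lies above 0, and the kinases and adaptors have 5, 7 and 1 filled points.

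The calls in Csf1r_het are the least stable: 174 genes passed there, and 0 of 13223 did without WT replicate 1, without Csf1r_het replicate 3, when only WT and Csf1r_het were fitted or with totals scaled without haemoglobin. The genes of these lists that passed in Csf1r_het were lost with them.

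The genes whose values over the 11 libraries were most like those of Fcgr4 were Dusp16 (r = 0.94), a phosphatase of MAP kinases, Cd300e (r = 0.94), a receptor known from patrolling monocytes, and Tmem51 (r = 0.93). The correlations, given as a description, share the 4 groups and are therefore not independent of genotype. Dusp16 differed from WT by -1.59, -1.70 and -3.57, Cd300e by -2.27, -3.03 and -3.70 and Tmem51 by -1.80, -2.95 and -3.08 in the order Csf1r_het, Csf2_het, Dhet. For Fcgr3 the most alike were Epn2, Scoc and Anxa3 (r = 0.94 each). For Fcgr1 they were Itpripl1 (r = 0.91), Hexim1 (r = 0.89) and Nrp2 (r = 0.88). Ranbp9, Slc9a8 and Atxn7l3 were most like Fcgr2b (r = 0.91, 0.90 and 0.90), and Clptm1l was most like Fcgrt (r = 0.93).

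Markers of other myeloid cells moved with the genotype beside Fcgr4. Of 10 genes of patrolling monocytes, a list added after the values of Fcgr4 were seen, 4 fell in Csf1r_het, 8 in Csf2_het and 5 in Dhet. All of their log2 differences were below 0, with medians of -1.87, -2.82 and -2.64. With WT replicate 2 and Csf1r_het replicate 2 left out, 5, 8 and 6 fell. Over 25 settings the counts ran from 0 to 6 in Csf1r_het, 5 to 9 in Csf2_het and 0 to 8 in Dhet. Nr4a1, Ace and Spn of this list also belong to the wider monocyte list, and the correlation of its genes with Fcgr4 over the 11 libraries ran from 0.47 to 0.94. Summed, they stood at 50372 to 82259.8 normalized counts in WT, 18209.8 to 20608 in Csf1r_het, 11281 to 12400.3 in Csf2_het and 12042 to 14965 in Dhet. Treml4, a receptor of those cells, had 9005, 4756 and 7608 normalized counts in WT, 2525, 1975 and 1300.2 in Csf1r_het, 918, 1033 and 1164 in Csf2_het and 963 and 766 in Dhet. Adgre4 stood at 8136 to 13251 in WT, 1694 to 3789 in Csf1r_het, 802 to 1974 in Csf2_het and 1034 and 1301 in Dhet. Treml4, Adgre4, Cd300e, Itgal, Eno3, Nr4a1, Ace and Spn were above 0 in each of the 11 libraries. Between Csf2_het and Dhet, 6 of the 10 genes were lower in Dhet, with a median of -0.25 and none passing, and the summed list, Treml4 and Adgre4 overlapped.

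Of 12 markers of monocytes at large, none fell in Csf1r_het, 10 fell in Csf2_het and none in Dhet, with medians of -1.42, -2.93 and -1.58. Their sum was 83633 to 262206 in WT, 58209.7 to 70244 in Csf1r_het, 16538 to 25337 in Csf2_het and 64276 and 74310.4 in Dhet. This sum was thus higher in Dhet than in Csf2_het. The Fcgr4 libraries of Dhet lay below those of Csf2_het, but that difference did not pass (log2 difference -0.94, limma adjusted p = 0.499). The 10 neutrophil markers gave medians of -0.99, -1.01 and 2.10 with none passing, and their sum ranged from 26596 (Csf1r_het replicate 2) to 794252 (WT replicate 3). The 10 microglial markers had medians of 0.80, 1.36 and 1.12, and 3 of them (P2ry12, Sall1 and Siglech) rose in Csf2_het, where 0.809% of all genes rose. Summed, they stood at 115832 to 296726 normalized counts in WT, 301837 to 353549 in Csf1r_het, 450531 to 590286 in Csf2_het and 386229 and 480741 in Dhet. Every heterozygous library thus lay above every WT library in this sum. Of 16 tested genes induced by tissue dissociation, 2 fell in Csf1r_het, 4 in Csf2_het and 1 in Dhet. The sum of these genes was 34108 to 62475 normalized counts in WT, 17019 to 18142 in Csf1r_het, 13983 to 25641 in Csf2_het and 48829 and 17156 in Dhet. Both single heterozygotes thus lay below WT in this sum without overlap, and Dhet overlapped WT. Of 6 tested border macrophage markers, F13a1, which is also in the monocyte list, and Clec12a fell in Csf2_het (log2 differences -3.50 and -2.26, limma adjusted p = 0.00547 and 0.00223), and none passed in the other groups. The list did not move as 1: over 25 settings its median ran from -0.08 to 1.02 in Csf1r_het, -0.96 to 0.75 in Csf2_het and -0.84 to 0.14 in Dhet. With WT replicate 2 and Csf1r_het replicate 2 left out, 2, 3 and 4 of the 6 genes were below 0. The sum of the 6 was 5908 to 10424 normalized counts in WT, 3452 to 4939.7 in Csf1r_het, 1603 to 2357 in Csf2_het and 4485 and 8177 in Dhet. Mrc1, Lyve1, Cd163 and Siglec1 of that list were not analysed here. Of 10 choroid plexus markers, 2 rose in Csf1r_het, 1 rose in Csf2_het and none passed in Dhet, with medians of 1.16, 1.09 and 0.13. Their sum was 444328 to 702394 normalized counts in WT, 914704 to 1617636 in Csf1r_het, 949464 to 1229638 in Csf2_het and 291542 and 652906 in Dhet. In bulk libraries, fewer cells of a type and less RNA per cell cannot be told apart, and the part of these cells in the Fcgr4 result was not tested.

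**Figure D5:**
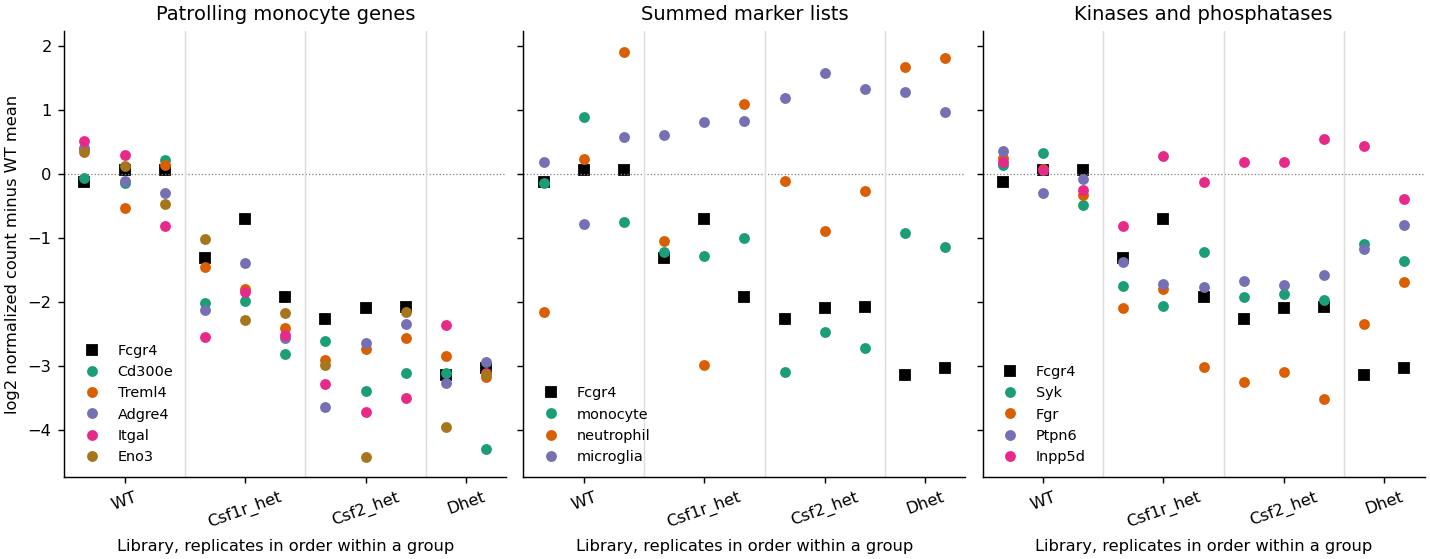
Log2 normalized count minus the WT mean in each library for Fcgr4 (squares) beside 5 genes of patrolling monocytes (left), summed marker lists of monocytes, neutrophils and microglia (middle) and 4 kinases and phosphatases (right). Libraries run in replicate order within each group. The patrolling monocyte genes shown descend with Fcgr4 to Csf2_het, the monocyte sum is higher in Dhet than in Csf2_het, and Inpp5d stays near 0. These patrolling monocyte genes are 5 of a list of 10 added after the values of Fcgr4 were seen. Their r with Fcgr4 ran from 0.82 to 0.94, and that of the list's genes not shown from 0.47 to 0.83.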

How the data were processed

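The samples are 11 libraries in 4 genotype groups. Per the submitters' processing notes, the tools were kallisto 0.43.1 and DESeq2 and the build was mm10. Their settings were not given in the sources used here. Each deposited value is a normalized count, a signal on a linear scale. Every value was a whole multiple of what 1 read is worth in its library (0.479 to 1.48 normalized counts, 100% within 0.02 reads).

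The main test was limma 3.58.1 in R 4.3.3 with a mean-variance trend, on log2(normalized count + 1). All groups entered the same model, which had 7 residual and 5.90 prior degrees of freedom, and 7 contrasts were drawn from it. The 13223 genes averaging at least 10 were kept (1516 were dropped), and p-values were adjusted by Benjamini-Hochberg within a contrast at 0.05. The added 1 understates fold changes of low genes. The scripts were tested on simulated data. Alternatives were another pseudocount, filter, scaling or model, each library left out, and counts of recovered reads in edgeR 4.0.16 and DESeq2 1.42.0.

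The members, gene lists and tests were chosen with earlier results of these data known. Named pathway genes were the called ones, at most 4 per list and contrast, or the 1 with the lowest p, and B2m, Syk, Lyn, Fgr, Inpp5d, Ptpn6 and Tyrobp. Some genes that the rule takes are not reported here. Genes most like a member were the 3 with the highest Pearson r among genes with a mean of at least 50. Cyba, Fcrls, Klf13, Skint3, Pcp4l1, Rpl23 and the patrolling monocyte genes were chosen after values were seen. Sequences and transcripts came from RefSeq (6 of 6 promoters matched) and GENCODE vM21.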

Additional observations from a re-analysis of the deposited data

Results flagged for a closer look

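No Fc receptor gene is among the results here, since none of their interactions passed and groups of 2 or 3 libraries are too small for a test of outlying libraries. Among the genes around the receptors, the change in Dhet differed from the sum of the changes in Csf1r_het and Csf2_het for 12 of the named genes (limma adjusted p under 0.05 for the interaction), and in each the Dhet level was higher than that sum. The phagocytosis effector Actr3, outside the rule for named genes, also passed (2.22). Of all genes, 1.2% had such a positive interaction. The log2 interactions were 3.57 for Fgr, 2.37 for Syk, 1.94 for Lcp2 and 3.61 for Vav3 among the kinases and adaptors. They were 2.29 for Ptpn6 and 2.46 for Dok3 on the inhibitory side, and 5.73 for Pira2 and 3.94 for Cd300lb among the receptors listed as possible partners of the gamma chain. They were 3.05 for Myo1g, 2.27 for Rac2 and 2.03 for Bin2 among phagocytosis effectors, and 2.76 for Cybb in the oxidase. Fcgr4 had 0.37 (limma adjusted p = 0.708). Libraries of both single heterozygotes and of WT enter each of these values. Each of the 12 genes had been called lower than WT in a single heterozygote, from the same libraries. A high WT or a low single heterozygote raises the interaction, so this choice of genes favours positive values. The count of 12 is therefore a description and cannot be weighed against the 1.2% of all genes.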

How the results depend on the processing

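With 3 libraries or fewer in a group and 2 in Dhet, the intervals of the members other than Fcgr4 are wide. Fcgr4 kept its direction against WT in each of 25 settings: -1.92 to -1.0 in Csf1r_het, -2.20 to -2.06 in Csf2_het and -3.31 to -2.87 in Dhet. The number of members called was 0 in Csf1r_het against WT and 1 without Csf1r_het replicate 2, with DESeq2 and with WT replicate 2 and Csf1r_het replicate 2 both left out, an alternative added after seeing the data. The leave-one-out counts ran from 0 to 1 there and from 0 to 1 in Dhet against WT, where 1 was called and 0 without Dhet replicate 1 or with only the groups compared. For Dhet against Csf1r_het the count was 0, and 1 with DESeq2.

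The reversals were these. Without WT replicate 2, Fcer1g stood at 0.37 in Csf1r_het and 0.14 in Csf2_het, Tyrobp at 0.73 and 0.33 and B2m at 0.070 in Csf2_het. With both outlying libraries left out these were 0.35, 0.14, 0.63, 0.33 and 0.070. Without Dhet replicate 2, or in mice of 21 months alone (added after seeing the data), Fcgr1 was 0.19 and Fcgr2b 0.22 in Dhet. Fcgr2b was 0.089 in Dhet with totals scaled without haemoglobin. B2m was -0.31 in Csf1r_het without WT replicate 3. In Csf1r_het, Tyrobp was 0.031 with medians centred and 0.044 without Csf1r_het replicate 1, and Inpp5d was 0.080 without Csf1r_het replicate 1. In Dhet, Inpp5d was -0.0077 with medians centred, -0.074 with age as a covariate, -0.10 without WT replicate 3 and -0.40 without Dhet replicate 1. Over leaving out 1 library, Dhet values ran from -0.79 to 0.19 for Fcgr1, -0.47 to 0.22 for Fcgr2b and -0.40 to 0.44 for Inpp5d. Csf1r_het values ran from -1.02 to 0.37 for Fcer1g, -0.31 to 0.53 for B2m, -0.47 to 0.080 for Inpp5d and -0.67 to 0.73 for Tyrobp. Csf2_het values ran from -1.25 to 0.14 for Fcer1g, -0.77 to 0.070 for B2m and -1.06 to 0.33 for Tyrobp. The cause was not tested.

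Per kilobase of transcript, in place of plain normalized counts, the log2 ratio of Fcgr2b to Fcgr1 was -0.18 in Csf1r_het, -0.097 in Csf2_het and 0.55 in Dhet. To Fcgr3 it was -2.32, -2.84, -2.89 and -2.92 from WT to Dhet, to Fcgr4 -1.83, -0.72, 0.19 and 1.13, and to the sum of the activating chains -3.23, -3.33, -3.22 and -3.13. In plain normalized counts the ratio to Fcgr1 was 0.28 in Csf1r_het, 0.36 in Csf2_het and 1.0 in Dhet. The plain ratio to Fcgr4 was -0.33, 0.77, 1.69 and 2.63 from WT to Dhet. The sign thus turned with the measure for Fcgr1 in Csf1r_het and Csf2_het, and for Fcgr4 in Csf1r_het.

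Replicate numbers did not pair the libraries: same-numbered deviations correlated at -0.21 to 0.06. With the replicate block, Fcgr4 had limma adjusted p = 0.113, 0.00848 and 0.0127 in Csf1r_het, Csf2_het and Dhet, and genes called over the table were 28, 256 and 48. Over the table the main counts of 174, 482 and 70 became 100, 458 and 26 with edgeR and 828, 1238 and 361 with DESeq2. Leaving out 1 library gave 0 to 439, 172 to 676 and 2 to 173. With totals without haemoglobin they were 0, 272 and 20, with age as a covariate 70 in Csf1r_het, and with only the groups compared 0, 259 and 0. In mice of 21 months alone, which leaves 1 Csf1r_het and 1 Dhet library, each assumed to vary like the other groups, they were 0, 250 and 132, and with both outlying libraries left out 570 and 944 in Csf1r_het and Csf2_het. Centring medians moved the median of all genes in Csf1r_het from -0.12 to 0.01 and its calls from 57 higher and 117 lower to 82 and 84. Genes called lower among the kinases and adaptors ran from 0 to 9 in Csf1r_het, 4 to 10 in Csf2_het and 0 to 6 in Dhet.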
